A study of Gallus gallus with 6 samples.

Results

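Genes of 8 families of ubiquitin ligases and ligase adaptors were described in the leg muscle of developing chickens. They were taken from the deposited expression tables by symbol, as every entry whose symbol begins with FBXO, FBXL, FBXW, KLHL, KBTBD or TRIM, or with CUL or ASB followed by a digit. This gave 138 genes (149 entries) of the 13365 genes with a symbol. There were 27 FBXO, 14 FBXL, 6 FBXW, 6 CUL, 33 KLHL, 7 KBTBD, 16 ASB and 29 TRIM genes. Where a gene had several entries, the entry with the highest mean value was used.

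A ubiquitin ligase passes ubiquitin to a chosen protein, which often marks that protein for the proteasome. In the cullin-RING ligases a cullin is the scaffold and an exchangeable adaptor picks the substrate. F-box proteins (FBXO, FBXL, FBXW) bind CUL1 through SKP1, the BTB-Kelch proteins (KLHL, KBTBD) bind CUL3, and ASB proteins bind CUL5 through elongins. Most TRIM proteins, though not all, carry a RING finger of their own. In mammals the F-box protein FBXO32 (atrogin-1) and the RING finger protein TRIM63 (MuRF1) are known as ligases of muscle protein breakdown, and mutations of the BTB-Kelch genes KLHL40 and KBTBD13 cause nemaline myopathy in humans.

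Leg muscle of Xinghua chickens, a slow-growing Chinese breed, was collected on day 11 (E11) and day 16 (E16) of embryonic life and on day 1 post hatch (D1, named P1 in the labels). All samples were labelled female, no genotype or treatment was given, and by these labels the groups differed in age only. There were 2 libraries per stage, 6 in all, made from total RNA after removal of ribosomal RNA. Each deposited table compared a pair of stages and gave 1 FPKM (fragments scaled to transcript length and to the mapped fragments of the library) per entry and stage, merged over both libraries.

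No value per library was in the tables used here, so the spread between libraries is unknown, no test could be made and no p-value is given. "Higher" and "lower" describe these merged values only, and a difference was counted from 2-fold upward. Ratios are log2 of the later over the earlier FPKM, each raised by 0.1, taken within 1 table, and counts cover genes with a mean FPKM of at least 1 over both stages of that table. A gene that passes this filter through its high stage alone had to differ, so the counts describe the genes that passed and not all 138. The tables were scaled by nearly constant factors. E11 values were 0.830 times as high in the table of D1 vs. E11 as in that of E16 vs. E11 (from 0.829 to 0.832 between the 1st and 99th percentiles of 12186 entries). Levels below are therefore given on the scale of the table of E16 vs. E11, with D1 values divided by that factor, and D1 vs. E11 is nearly the sum of the other 2 steps. FPKM is a relative measure, and in whole muscle fewer cells of a type and less RNA per cell cannot be told apart.

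Tissue markers moved along with the stages. The summed FPKM of 6 muscle fiber genes was 1717 at E11, 43790 at E16 and 61191 at D1, and all 6 were at least 2-fold higher at E16 than at E11. Over the same stages 10 genes of dividing cells summed to 682, 345 and 94.4, 10 genes of epidermis and epithelium to 155, 8.39 and 6.68, and 7 kidney genes to 162, 6.06 and 5.23. Cartilage genes (9 found) summed to 267, 86.1 and 62.3 with MATN1 listed at 0 in part, nerve and Schwann cell genes (10) to 51.0, 572 and 500.0 with NEFM listed at 0 in part, endothelial genes (10) to 155, 389 and 554, and fat cell genes (8) to 37.2, 1405 and 1480. Leukocyte genes (8) summed to 43.1, 61.4 and 39.7 and red cell genes (8) to 1611, 3146 and 1344. The part of these cell types in the results below was not tested.

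The ligase and adaptor genes were more often higher than lower at the later stage. At E16 vs. E11, 27 of the 117 genes that passed the filter were at least 2-fold higher (23.1%), beside 12.5% of all 10347 genes. Lower were 7 genes (5.98%), beside 10.4% of all genes. At D1 vs. E16, 25 of 117 were higher (21.4%), beside 10.3% of all genes, and 6 were lower (5.13%), beside 8.71%. At D1 vs. E11, 35 of 120 were higher (29.2%), beside 20.5%, and 11 were lower (9.17%), beside 18.1%. The median log2 ratio of the members was 0.23, 0.14 and 0.39 for these comparisons, against 0.00, 0.06 and 0.05 for all genes.

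Most genes of a list known from muscle were higher, a description and no test. This list of muscle-expressed ligase genes, written from general knowledge and with earlier results of these data known, held 24 genes with an entry. The median log2 ratio of the 18 that passed at E16 vs. E11 was 3.45. Of them 16 were higher (88.9%, beside 12.5% of all genes) and 1 was lower (5.56%, beside 10.4%). Some of them, such as KLHL33 and ASB15 (0.0598 and 0.140 FPKM at E11), passed through their E16 value alone and had to be higher. At D1 vs. E16, 13 of 22 were higher (59.1%, beside 10.3%) and 1 was lower (4.55%, beside 8.71%), with a median of 1.25. At D1 vs. E11, 20 of 22 were higher (90.9%, beside 20.5%) and 1 was lower (4.55%, beside 18.1%), with a median of 4.70. KLHL38 and ASB4 passed at D1 vs. E16 through their D1 value alone and had to be higher. The same held at D1 vs. E11 for ASB4, ASB10, ASB11, ASB14, ASB15, FBXO40, KBTBD12, KBTBD13, KLHL33, KLHL34 and KLHL38. Outside this list 11 of 99 members were higher (11.1%) and 6 lower (6.06%, beside 10.4%) at E16 vs. E11, with a median log2 ratio of 0.13. At D1 vs. E16, 12 of 95 were higher (12.6%) and 5 lower (5.26%, beside 8.71%), with a median of 0.11. At D1 vs. E11, 15 of 98 were higher (15.3%) and 10 lower (10.2%, beside 18.1%), with a median of 0.17. These shares of higher members lie near or below those of all genes, and the shares of lower members lie below them. TRIM54, TRIM72, KLHL41 and ASB16, which belong to the same list, were not analysed here.

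**Figure D1:**
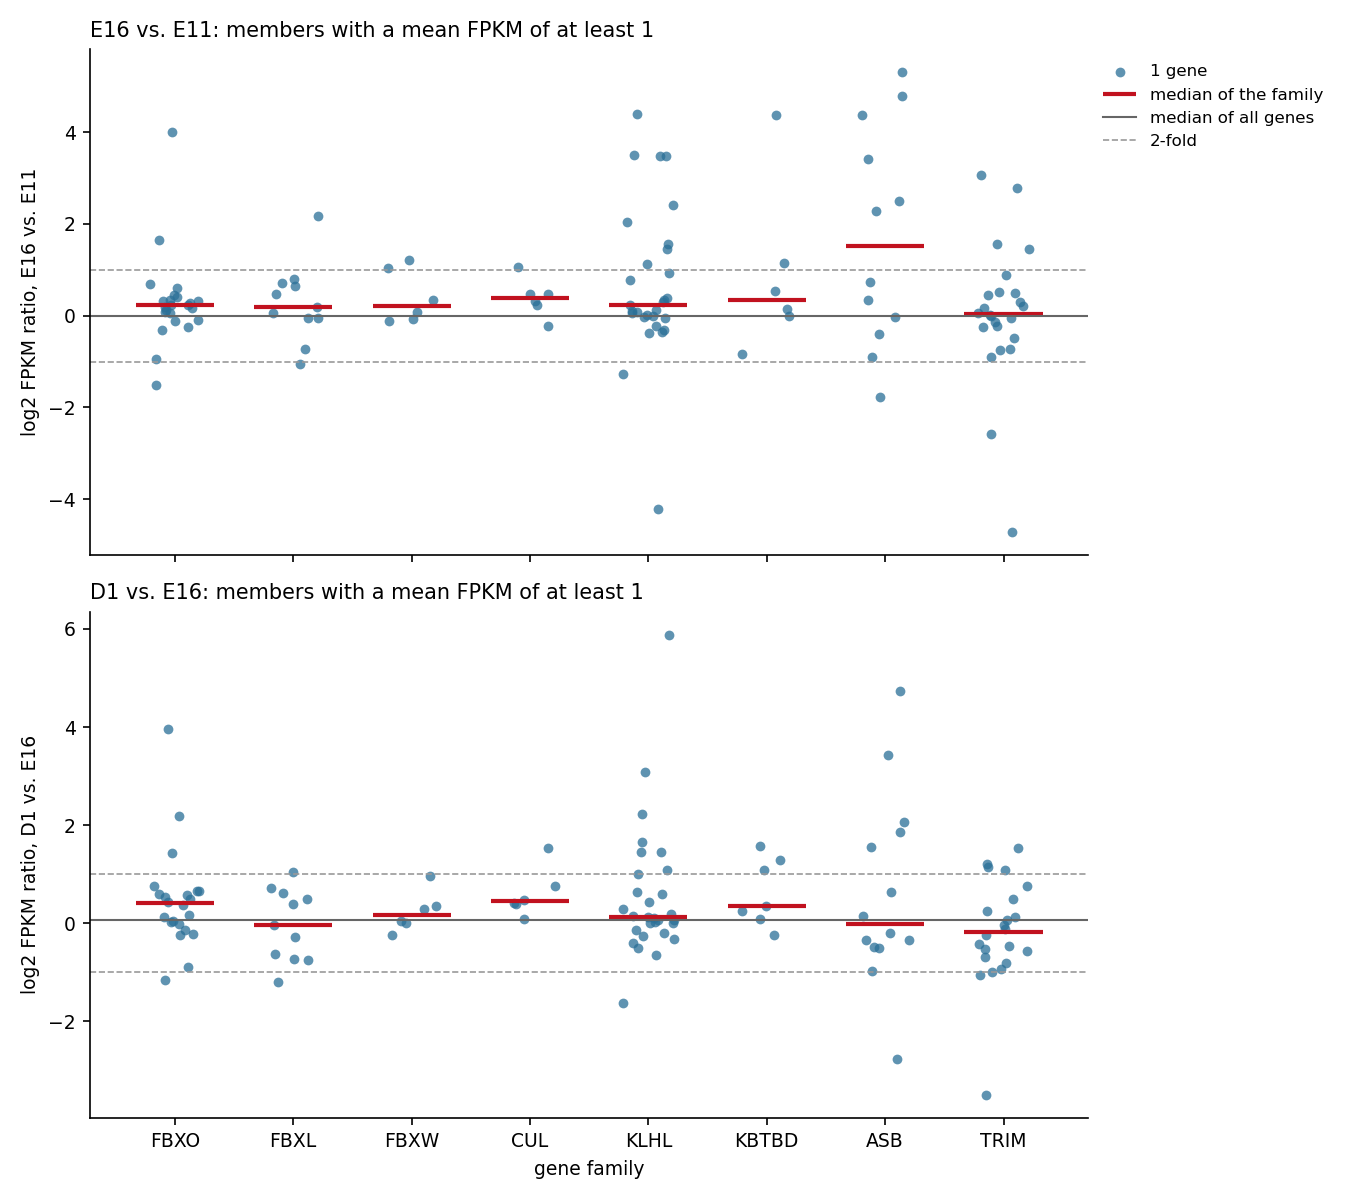
Log2 FPKM ratio of each ligase or adaptor gene (vertical axis) by family (horizontal axis), for E16 vs. E11 (upper panel) and D1 vs. E16 (lower panel), over genes with a mean FPKM of at least 1. Red bars are family medians, the grey line is the median of all genes and dashed lines mark 2-fold. The ASB median stands at 1.52 in the upper panel and at -0.02 in the lower, and the TRIM median at 0.03 and -0.18. Some genes, such as ASB14, ASB15 and ASB18 in the upper panel, passed the filter through 1 stage alone and had to differ.

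The summed level of the members, 1293 FPKM at E11, was 2348 at E16 and 3120 at D1. The median member had an FPKM of 5.48 at E11, 7.06 at E16 and 8.44 at D1, while the median of all genes was 7.27, 7.24 and 6.97. No member reached an FPKM of 100 at E11, 3 did at E16 and 6 at D1. The BTB-Kelch genes of the KLHL family made up the largest part of the difference, with sums of 274.5, 695 and 1236 FPKM at E11, E16 and D1. The 3 most abundant KLHL genes held 28.5% of the family's sum at E11 (KLHL2, KLHL31 and KLHL36), 58.6% at E16 (KLHL31, KLHL40 and KLHL24) and 66.1% at D1 (the same 3 genes as at E16).

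Among the scaffolds, CUL4A, which joins DDB1-based ligases, stood out. Its FPKM was 15.7 at E11, 33 at E16 and 94.9 at D1, with log2 ratios of 1.07 at E16 vs. E11 and 1.52 at D1 vs. E16. Its paralogue CUL4B had 46.5, 39.7 and 42.2 FPKM. The ratio of CUL4A to CUL4B was thus 0.338 at E11, 0.831 at E16 and 2.25 at D1, so that the order of the 2 genes was the opposite at D1 of that at E11. CUL5, the scaffold of ASB adaptors, had 27.5, 38.2 and 64.9 FPKM, and passed 2-fold only over the whole span (log2 1.23 at D1 vs. E11). CUL3, the scaffold of BTB-Kelch adaptors, had 47.7, 59.9 and 78.8 FPKM, CUL1, that of F-box proteins, 47.3, 55.6 and 74.3, and CUL2, 10.6, 14.7 and 20.4. These 3 stayed within 2-fold in each comparison. A second, less abundant entry of CUL2 (8.34, 12.5 and 17.3 FPKM) was just past 2-fold at D1 vs. E11 (log2 1.05). The locus of CUL1 overlaps that of EZH2 and the loci of CUL4B and CUL5 overlap an lncRNA and an unnamed entry. The use of strand in counting was not stated, so reads there may be shared.

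The core subunits and regulators of cullin ligases, which are no members, had 31 genes with an entry. At E16 vs. E11, 3 of 31 were higher (9.68%, beside 12.5% of all genes) and 1 lower (3.23%, beside 10.4%). At D1 vs. E16, 4 of 30 were higher (13.3%, beside 10.3%) and 1 lower (3.33%, beside 8.71%). At D1 vs. E11, 8 of 31 were higher (25.8%, beside 20.5%) and 3 lower (9.68%, beside 18.1%). The shares of higher genes were thus near those of all genes. The F-box linker SKP1 had an FPKM of 122 at E11, 111 at E16 and 121 at D1, and DDB1 36.2, 34.5 and 36.0. The exchange factors, which swap adaptors on the cullin, moved in opposite directions. CAND2, known as a muscle form, had 6.42 FPKM at E11, 26.2 at E16 and 88.6 at D1, and CAND1 56.6, 31.5 and 24.6. The ratio of CAND2 to CAND1 was 0.113 at E11, 0.833 at E16 and 3.61 at D1. DCUN1D2, which promotes the NEDD8 modification that activates cullins, had 2.61, 7.36 and 16.2 FPKM, against 26.8, 25.4 and 35.7 for its relative DCUN1D1. COPS7A of the signalosome, which removes NEDD8, had 24.4, 52.0 and 79.2 FPKM. CCNF, an F-box protein of the cell cycle (cyclin F), had 10.6, 6.20 and 1.75.

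**Figure D2:**
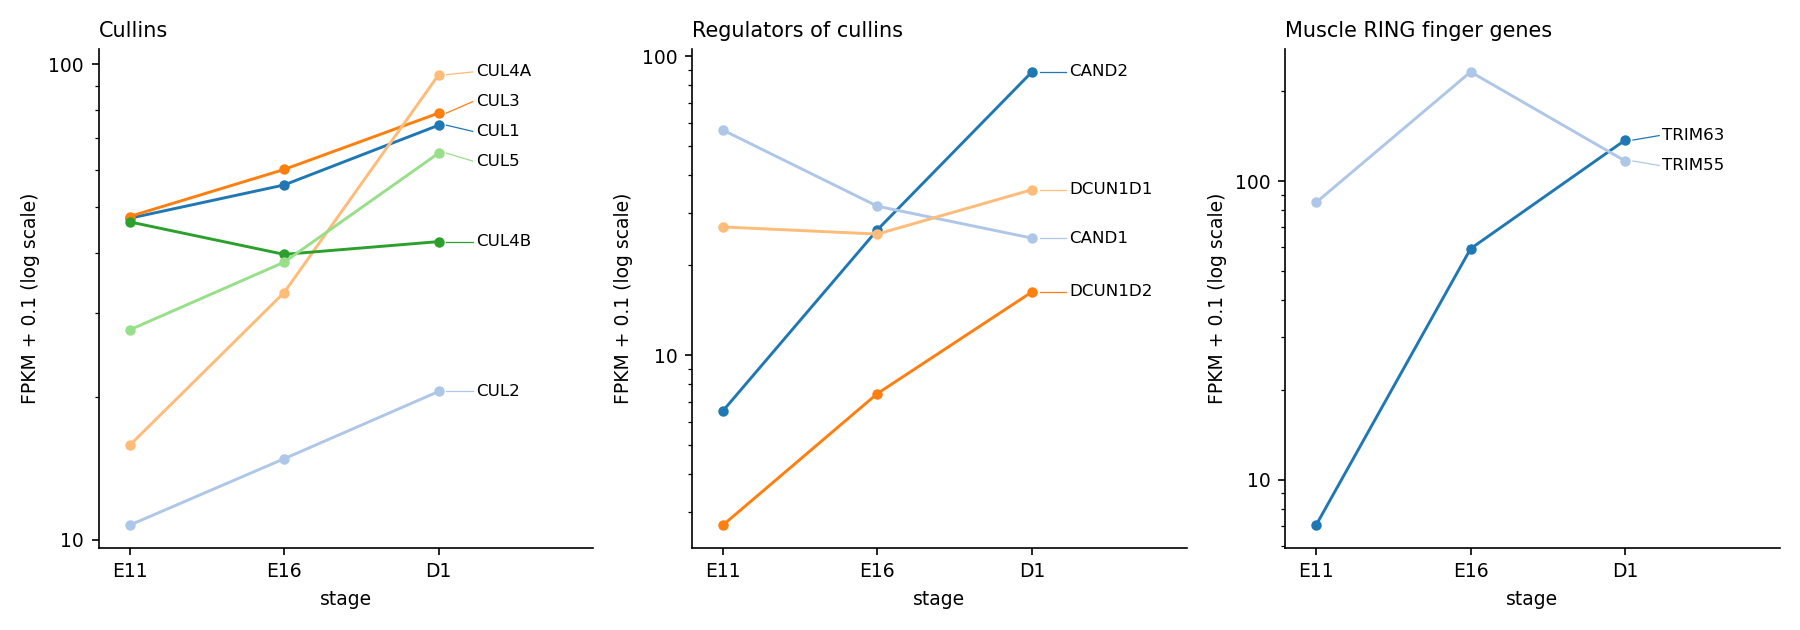
FPKM raised by 0.1 (vertical axes, log scale) at E11, E16 and D1 (horizontal axes), with 1 line per gene and 1 merged value per stage, on the scale of the table of E16 vs. E11. CUL4A crosses CUL4B and reaches 94.9 at D1 (left), CAND2 crosses CAND1 and reaches 88.6 (middle), and TRIM63 passes TRIM55 between E16 and D1 (right).

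FBXO genes were mostly level. At E16 vs. E11, 2 of 23 were higher (8.70%, beside 12.5% of all genes) and 1 was lower (4.35%, beside 10.4%). At D1 vs. E16, 3 of 22 were higher (13.6%, beside 10.3%) and 1 was lower (4.55%, beside 8.71%). The shares of higher genes were near those of all genes. At D1 the most abundant FBXO gene was FBXO32. It had an FPKM of 3.72 at E11, 6.05 at E16 and 95.3 at D1, and the log2 ratio was 0.69 at E16 vs. E11 and 3.95 at D1 vs. E16. Most of the difference thus fell in the later step. FBXO40, a muscle-specific F-box protein that targets the insulin receptor substrate IRS1 in mouse muscle cells, was higher in both steps. Its FPKM was 0.505, 9.61 and 44.3, with log2 ratios of 4.0 and 2.19. FBXO30, known as MUSA1 in mouse and induced there by denervation, had 11.9, 18.0 and 48.4 FPKM and followed the course of FBXO32 at a smaller ratio (log2 1.42 at D1 vs. E16). FBXO21, another F-box gene of mouse muscle atrophy, was level at 8.39, 7.85 and 8.05 FPKM.

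The FBXO genes most abundant at E11 stayed within 2-fold. FBXO11, whose human protein targets BCL6, had an FPKM of 50.6 at E11, 46.5 at E16 and 47.5 at D1, and FBXO9 had 41.3, 56.6 and 51.0. FBXO48 was higher at E16 (FPKM 2.93, against 0.859 at E11). Lower were FBXO2, which binds glycoproteins in brain, at E16 (0.559, against 1.78 at E11) and FBXO39 at D1 (log2 -1.17 vs. E16). FBXO2 passed the filter through its E11 value alone and had to be lower. FBXO5 (EMI1), an inhibitor of the anaphase-promoting complex made in dividing cells, had 8.52, 6.84 and 3.61 FPKM and passed 2-fold only at D1 vs. E11 (log2 -1.21), beside summed dividing-cell markers of 94.4 at D1 and 682 at E11, and the part of dividing cells in that difference was not tested.

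The most abundant FBXL gene at each stage was FBXL22, a sarcomere-associated F-box protein described in mouse heart. Its FPKM was 42.8 at E11, 193 at E16 and 115 at D1, with log2 ratios of 2.17 at E16 vs. E11 and -0.75 at D1 vs. E16. FBXL22, with FBXL2 and FBXL5, held 79.7% of the family's sum at E16. The locus of FBXL22 overlaps those of USP3 and an lncRNA, so its value is uncertain. FBXL5, the iron sensor that degrades an iron regulatory protein, had 16.1, 16.8 and 23.6 FPKM, and its locus overlaps that of BST1. FBXL7 was lower at E16 (log2 -1.06), FBXL2 lower at D1 vs. E16 (-1.20), and FBXL15 higher (1.05), though FBXL15 shares its locus with CUEDC2. FBXL4, a mitochondrial F-box protein, passed 2-fold over the whole span only (7.06, 12.3 and 18.7 FPKM).

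Of the 6 FBXW genes 2 were higher at E16 vs. E11 (33.3%, beside 12.5% of all genes) and none passed 2-fold at D1 vs. E16. FBXW7, which targets cyclin E and MYC, had an FPKM of 17.1 at E11, 39.7 at E16 and 33.3 at D1. FBXW4 had 6.94, 14.3 and 14.8, and lies just past 2-fold (log2 1.03), with an lncRNA overlapping its locus. FBXW11 (beta-TrCP2), which recognises phosphorylated beta-catenin, was level at 18.3, 19.5 and 24.8. FBXW2 had 2 transcripts with unlike courses. The more abundant had 9.28, 11.8 and 11.8 FPKM, and the other 6.0, 10.2 and 14.2, so that their order differed between E11 and D1.

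KLHL genes held the 3 highest levels of all members at D1, though at E11 and E16 other families had members above all or most of them. At E16 vs. E11, 9 of 29 were higher (31.0%, beside 12.5% of all genes) and 2 lower (6.90%, beside 10.4%). KLHL33 and KLHL34 (0.0598 and 0.583 FPKM at E11) passed through their E16 value alone and had to be higher. KLHL14 (0.223 FPKM at E16) passed through its E11 value alone and had to be lower. At D1 vs. E16, 8 of 29 were higher (27.6%, beside 10.3%) and 1 lower (3.45%, beside 8.71%). At D1 vs. E11, 11 of 30 were higher (36.7%, beside 20.5%) and 2 lower (6.67%, beside 18.1%). Of those higher, KLHL6, KLHL33, KLHL34 and KLHL38 passed through their D1 value alone and had to be higher, as did KLHL38 at D1 vs. E16. KLHL14 again passed through its E11 value alone and had to be lower at D1. Yet the family median was only 0.24, 0.12 and 0.26 on the log2 scale, since most other members were level. KLHL31, needed for sarcomere structure in mice, was the most abundant member at E16 and D1, with an FPKM of 25.4 at E11, 285 at E16 and 442 at D1 (log2 3.48 and 0.64 per step). KLHL40, which in mammals stabilises the thin-filament proteins nebulin and LMOD3, had 14.1, 75.3 and 152 FPKM (log2 2.41 and 1.01). Its partner LMOD3 had 15.3, 187 and 135 FPKM, so the ratio of KLHL40 to LMOD3 was 0.922 at E11, 0.404 at E16 and 1.12 at D1. The nebulin entry was marked in the tables as having too many fragments and was not used here.

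The other KLHL genes of muscle differed in when they became abundant. KLHL30 was higher at E16 (34.4 FPKM, against 3.0 at E11) and at the same 34.4 at D1. KLHL34 was higher in both steps, with 0.583, 7.64 and 65.3 FPKM (log2 3.50 and 3.08), as was KLHL33 with 0.0598, 3.29 and 9.26. KLHL38 had 0.340 FPKM at E11, 0.371 at E16 and 30.0 at D1, and its log2 ratio of 5.88 was the largest of any member at D1 vs. E16. KLHL38 passed the filter in that comparison through its D1 value, and at E16 vs. E11 it was marked as having too few fragments for a test by the authors.

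Several KLHL genes outside the muscle list moved with these. KLHL24, whose human protein acts on keratin and desmin filaments, had an FPKM of 15.9 at E11, 47.3 at E16 and 223 at D1, and was the second most abundant member at D1. KLHL21, a partner of CUL3 in cell division in human cells, had 9.65, 40.4 and 60.8 FPKM, and KLHL25 had 4.0, 8.85 and 28.2. KLHL22, another CUL3 adaptor of mitosis, was level at E16 and higher at D1 (5.05, 6.63 and 18.3), with an lncRNA overlapping its locus. KLHL23 was higher at E16 (12.3, against 4.42 at E11). Lower at E16 were KLHL14 (0.223 FPKM, against 5.94 at E11) and KLHL29 (2.31, against 5.69), and KLHL4 was lower at D1 (1.45, against 4.79 at E16). KLHL2, an actin-binding adaptor and the most abundant KLHL gene at E11, was level, at 30.5 FPKM at E11 and 24.4 at E16 (log2 0.15 at D1 vs. E16). The locus of KLHL2 overlaps an entry named 7SK and that of KLHL14 an unnamed entry, so reads there may be shared.

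Of the KBTBD genes, KBTBD12 and KBTBD13 were near 0 at E11. KBTBD12 had an FPKM of 0.10 at E11, 4.07 at E16 and 12.4 at D1, and KBTBD13 0.0387, 1.91 and 4.85. KBTBD3 had 0.865, 2.04 and 4.45, higher in both steps. KBTBD8, the most abundant of the family at E16 and D1 and an adaptor of neural crest formation in frogs, had 10.9, 15.8 and 20.1 and stayed within 2-fold, as did KBTBD2 at 14.1, 14.1 and 16.6. KBTBD11 passed 2-fold downward at D1 vs. E11 (log2 -1.06).

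**Figure D3:**
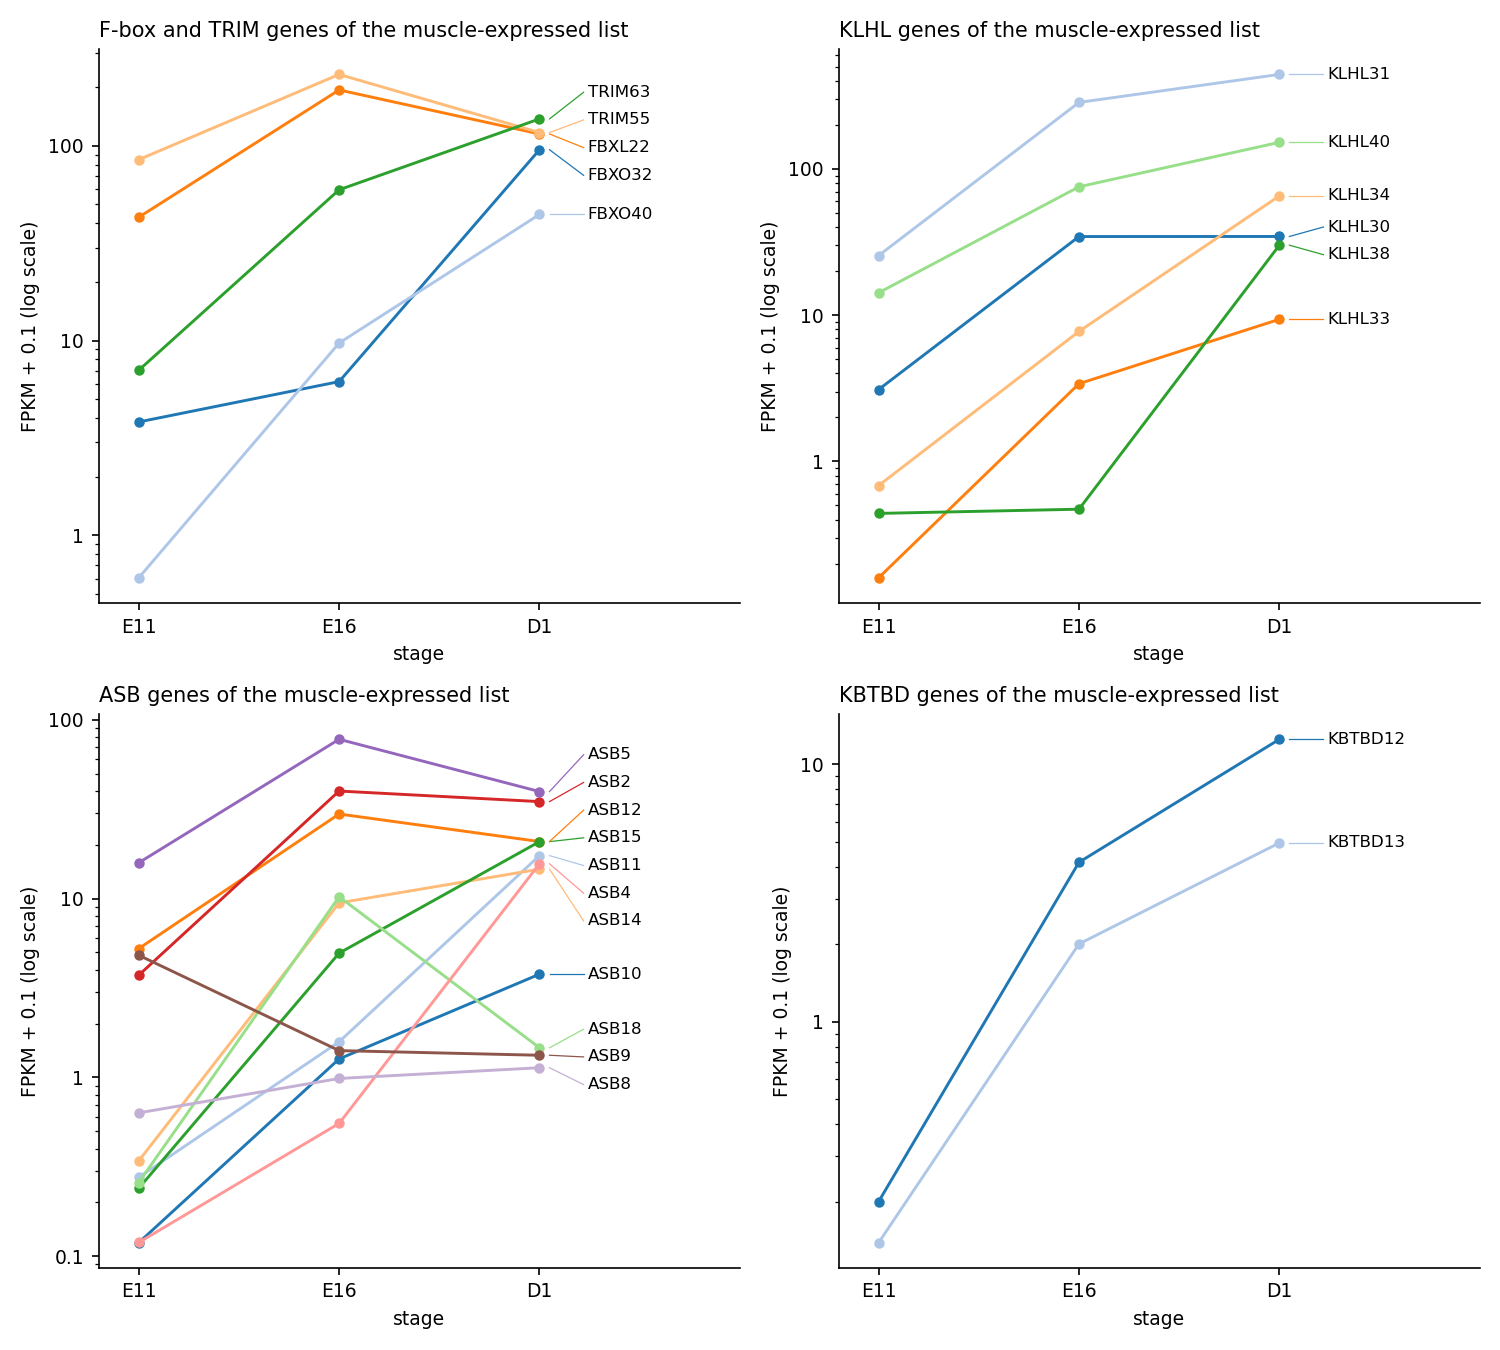
FPKM raised by 0.1 (vertical axes, log scale) of the 24 genes of the muscle-expressed list at E11, E16 and D1 (horizontal axes), 1 line per gene and 1 merged value per stage, on the scale of the table of E16 vs. E11. FBXO32 and KLHL38 stay within 2-fold up to E16 and reach 95.3 and 30.0 at D1, while TRIM55, FBXL22, ASB5, ASB12, ASB2 and ASB18 have their highest value at E16.

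ASB genes had the highest family median at E16 vs. E11, 1.52 on the log2 scale, with 6 of 12 higher (beside 12.5% of all genes) and 1 lower (8.33%, beside 10.4%). Among those higher, ASB14, ASB15 and ASB18 (0.241, 0.140 and 0.158 FPKM at E11) passed the filter through their E16 value alone and had to be higher. At D1 vs. E16, 5 of 14 were higher (35.7%, beside 10.3%) and 1 lower (7.14%, beside 8.71%) around a median of -0.02. Here ASB4 (0.453 FPKM at E16) passed through its D1 value alone and had to be higher. The family's sum was nearly the same at E16 and D1 (54.9 FPKM at E11, 197 at E16 and 192 at D1) although its make-up was not. The genes most abundant at E16 stayed within 2-fold at D1. ASB5 had an FPKM of 15.8, 77.7 and 39.6 at E11, E16 and D1 (log2 -0.97 at D1 vs. E16), ASB12 had 5.15, 29.6 and 20.7, and ASB2, which targets filamins in differentiating mouse muscle cells, had 3.63, 39.8 and 34.8. ASB18 alone was higher and then lower past 2-fold, with 0.158, 10.1 and 1.36 FPKM (log2 5.31 and -2.77). With ratios centred on the median of all genes, ASB5 also passed 2-fold lower at D1 vs. E16.

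A second set of ASB genes was highest at D1. ASB15 had an FPKM of 0.140 at E11, 4.85 at E16 and 20.7 at D1, ASB11 had 0.176, 1.48 and 17.3, and ASB4 had 0.0193, 0.453 and 15.6. ASB10 stood at 0.0190, 1.17 and 3.68, and ASB13 at 0.943, 1.64 and 6.31. ASB14 was high from E16 on (0.241, 9.36 and 14.5). For ASB4 and ASB10 the E11 value was below the constant of 0.1 added before taking ratios, so the size of their log2 ratios against E11 (6.81 and 4.77 at D1) rests on that constant. ASB4 shares its locus with a microRNA. The exception of the muscle list was ASB9, which binds brain-type creatine kinase in humans. It was lower at E16 (1.31 FPKM, against 4.72 at E11) and remained near that level at D1 (1.23). ASB1 stayed within 2-fold per step and was lower past it at D1 vs. E11 (10.1, 5.40 and 4.24 FPKM at E11, E16 and D1, log2 -1.23).

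TRIM genes had medians near or below 0. At E16 vs. E11, 4 of 24 were higher (16.7%, beside 12.5% of all genes) and 2 lower (8.33%, beside 10.4%), near the shares of all genes. In the next step, D1 vs. E16, 4 of 22 were higher (18.2%, beside 10.3%) and 2 lower (9.09%, beside 8.71%), and at D1 vs. E11, 3 of 23 were higher (beside 20.5%) and 4 lower (17.4%, beside 18.1%). Of the lower genes at D1 vs. E11, TRIM29, TRIM36 and TRIM66 passed through their E11 value alone and had to be lower. The muscle RING finger genes TRIM63 and TRIM55 (MuRF2), whose mammalian proteins bind titin in the sarcomere, were the most abundant of the family at E16 and D1, and TRIM55 alone at E11. TRIM55 had an FPKM of 84.8 at E11, 232 at E16 and 117 at D1, and TRIM63 6.94, 59.3 and 137. The ratio of TRIM63 to TRIM55 was 0.0819 at E11, 0.255 at E16 and 1.18 at D1. TRIM7.1 on chromosome 16, a gene named after the glycogenin-binding TRIM7, had 2.43, 17.3 and 38.1 FPKM, against 18.0, 12.8 and 11.7 for TRIM7.2, 23.2 kb away. TRIM2, which in mice ubiquitinates a neurofilament protein, was lowest at E16 (23.9, 12.7 and 37.1). TRIM23, which carries a GTPase domain, was higher at D1 (13.6, against 6.40 at E16), and its locus overlaps another gene's. TRIM27.1 was higher at E16, but it passed the filter through its E16 value alone and had to be higher. TRIM27.1 and TRIM27.2 had 4 entries each at the same locus, so their reads may be split.

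The 3 lowest ratios of members at E16 vs. E11 belonged to genes of low level after E11. They passed the filter through their E11 value alone, so they had to be lower. TRIM29, a TRIM protein of stratified epithelia, had an FPKM of 5.02 at E11, 0.0936 at E16 and 0.0523 at D1 (log2 -4.72 at E16 vs. E11). Its E16 value was below the added constant of 0.1, so the size of this ratio rests on that constant. KLHL14 had 5.94, 0.223 and 0.162 (log2 -4.23), and TRIM66, a chromatin-binding relative of TRIM24, 4.21, 0.621 and 0.281 (log2 -2.58). Beside these, 8 of the 9 epidermal and epithelial markers and 6 of the 7 kidney markers that passed the same filter were at least 2-fold lower at E16, and the part of such cells in these differences was not tested. Some of these markers, such as KRT5 and CDH1 (0.0974 and 0.195 FPKM at E16), also passed through their E11 value alone. TRIM36 was lower only in the later step, with 6.06, 7.51 and 0.533 FPKM (log2 -3.50 at D1 vs. E16). In that step TRIM36 passed the filter through its E16 value alone, so it had to be lower. There 9 of 10 dividing-cell markers were lower as well, and the part of dividing cells was not tested either. TRIM62 was also lower at D1 (1.98 FPKM, against 4.28 at E16).

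Classed by both steps together, 122 members had a mean FPKM of at least 1 over the 3 stages. Higher in both steps were 16 members (13.1%), beside 3.76% of all genes. Of these ASB4, ASB10, ASB11 and KBTBD13 passed through their D1 value and were below the filter of E16 vs. E11, so that 31 members are classed here as higher at E16 in place of 27. Over the 112 members that passed the filter of both steps, 12 were higher in both (10.7%, beside 3.83% of all genes), a count added after the data were seen. Among these ASB15, FBXO40, KBTBD12, KLHL33 and KLHL34 still passed at E16 vs. E11 through their E16 value alone and had to be higher in that step. The 16 were CUL4A, FBXO40, KLHL24, KLHL25, KLHL33, KLHL34, KLHL40, KBTBD3, KBTBD12, KBTBD13, ASB4, ASB10, ASB11, ASB15, TRIM63 and TRIM7.1. Higher at E16 and level at D1 were 14 (11.5%, beside 7.56%), among them KLHL31, TRIM55 and FBXL22. Level and then higher were 9 (7.38%, beside 5.30%), with FBXO32, FBXO30 and KLHL38, and 70 were level in both steps (57.4%, beside 66.2%). KLHL38 was below the filter of E16 vs. E11, and with the filter of both steps 8 members were level and then higher (7.14%, beside 5.21%). Higher and then lower was ASB18 alone (0.820%, beside 1.44%), with TRIM55 and ASB5 just short of 2-fold lower in the later step. Level and then lower were 5 (4.10%, beside 6.05%), lower and then level were 7 (5.74%, beside 6.45%; 2 with the filter of both steps), and no member was lower in both steps (beside 2.28%) or lower and then higher (beside 0.913%). The other 16 members were below this filter. Among them FBXL12 was listed at 0 at each stage, and ASB8 of the muscle list, whose locus overlaps the phosphofructokinase gene PFKM, had 0.533, 0.886 and 1.03 FPKM.

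**Figure D4:**
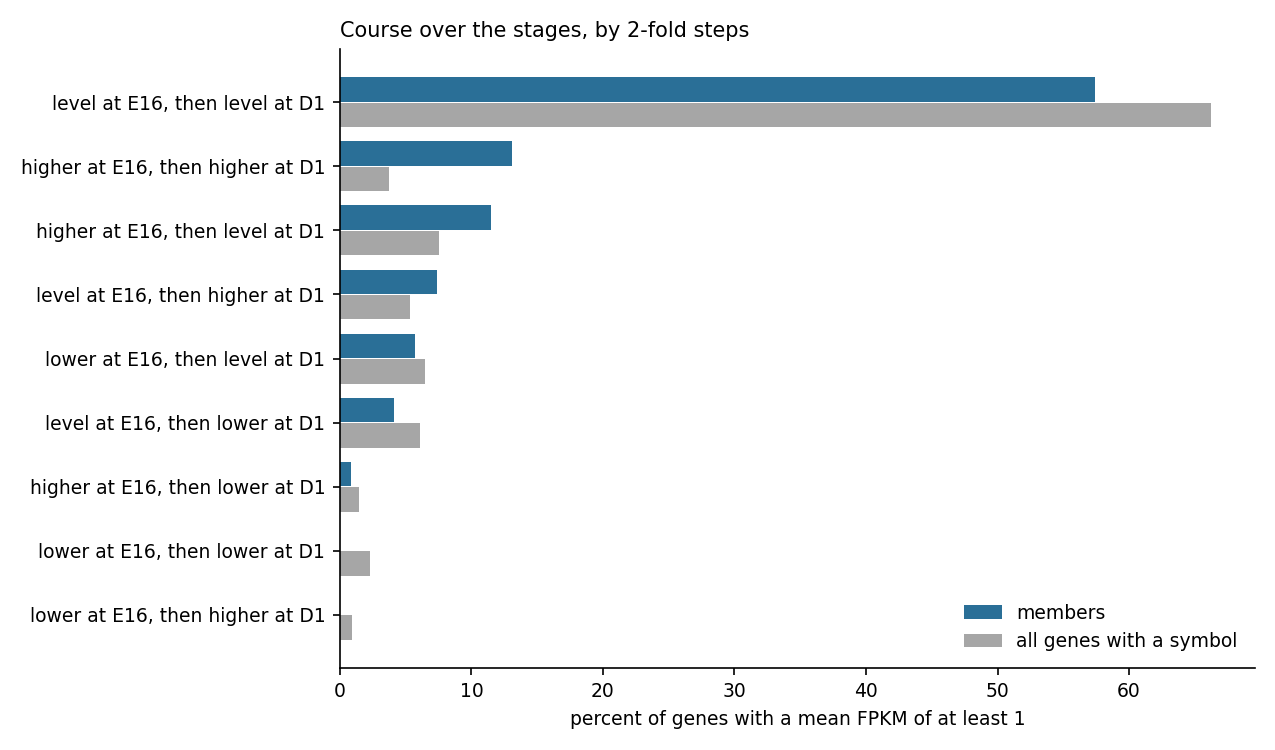
Percent of genes (horizontal axis) in each course over the 2 steps (vertical axis), where higher and lower mean at least 2-fold and level means less, for members (blue, 122 genes) and all genes with a symbol (grey, 10292 genes). Members stand at 13.1% against 3.76% in the course that is higher in both steps. Some members of that course, such as ASB4, passed the filter through their D1 value alone.

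Some members are neighbours on the genome. On chromosome 2 of galGal4, FBXO32 (137644051 to 137668702) lies 28.1 kb from KLHL38 (137696848 to 137701773), and both were level at E16 and higher at D1. KLHL38, however, had only 0.340 and 0.371 FPKM at E11 and E16 and was below the filter of E16 vs. E11. It passed at D1 vs. E16 through its D1 value alone and had to be higher there. On chromosome 1, ASB11 (121483020 to 121494829) lies 13.4 kb from ASB9 (121508255 to 121521572), and their directions were opposite, the ratio of ASB11 to ASB9 being 0.0373 at E11, 1.13 at E16 and 14.1 at D1. On chromosome 9, KLHL24 lies 14.8 kb from KLHL6, a gene of B cells that was higher at D1 (3.20 FPKM, against 1.44 at E16), and the ratio of KLHL24 to KLHL6 was 22.5, 32.7 and 69.5. On chromosome 27, KLHL10 and KLHL11 lie 1.28 kb apart and kept a nearly constant ratio of 0.872, 0.859 and 0.842. On chromosome 15, FBXW8 and FBXO21, 4.58 kb apart, were both level. Of the 138 members 25 overlap the locus of another entry and 34 have an lncRNA within 50 kb. The same counts over all genes were not made, so whether these are many or few cannot be told.

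**Figure D5:**
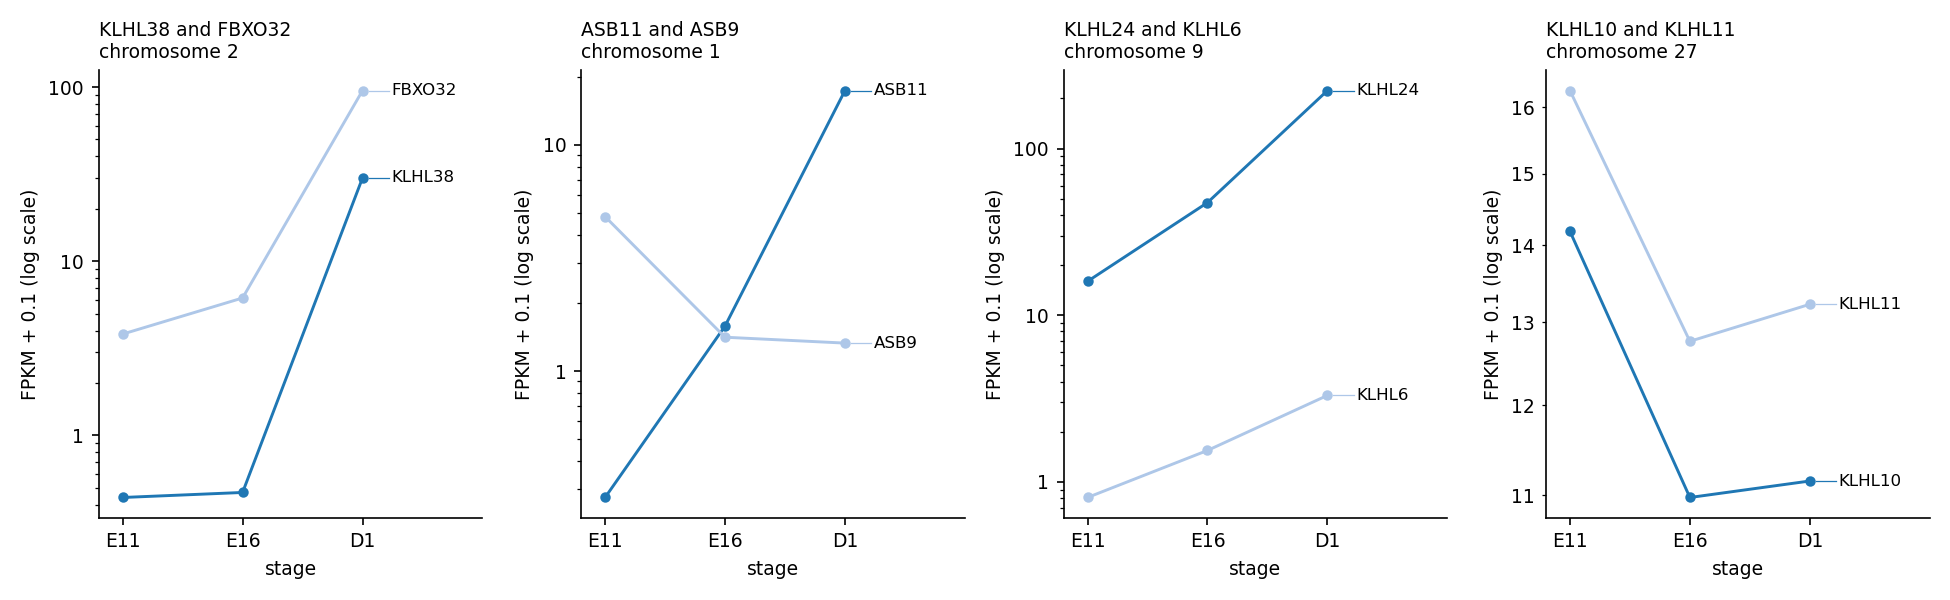
FPKM raised by 0.1 (vertical axes, log scale, of different range in each panel) of 4 pairs of neighbouring members at E11, E16 and D1 (horizontal axes), on the scale of the table of E16 vs. E11. KLHL38 and FBXO32 are both higher at D1, KLHL38 from a low 0.371 FPKM at E16. ASB11 and ASB9 cross, and KLHL10 and KLHL11 run in parallel between 10.9 and 16.2 FPKM.

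Lists of members by other known roles were small. Of 16 cell cycle members, 3 were higher (18.8%, beside 12.5% of all genes) and 1 lower (6.25%, beside 10.4%) at E16 vs. E11. At D1 vs. E16, 3 were higher (18.8%, beside 10.3%) and 1 lower (6.25%, beside 8.71%). At D1 vs. E11, 3 were higher (18.8%, beside 20.5%) and 3 lower (18.8%, beside 18.1%), near the shares of all genes. Of 9 TRIM genes of the immune response, 2 were higher (22.2%, beside 12.5%) and none lower (beside 10.4%) at E16 vs. E11. These were TRIM7.1 and TRIM27.1, of which TRIM27.1 (0.462 FPKM at E11) passed through its E16 value alone and had to be higher. At D1 vs. E16, 1 was higher (11.1%, beside 10.3%) and 1 lower (11.1%, beside 8.71%), near the shares of all genes. Of the 5 nerve-expressed members that passed, 2 (FBXO2 and KLHL14) were lower at E16 vs. E11 (40%, beside 10.4%) and none was higher (beside 12.5%). Both FBXO2 and KLHL14 (0.559 and 0.223 FPKM at E16) passed the filter through their E11 value alone, so they had to be lower. In that comparison 1 of the 5 had a ratio above 0, and the median was -0.90. At D1 vs. E16, TRIM2 was higher of 3 (33.3%, beside 10.3%). The neuron markers NEFM, TUBB3, NEFL and ELAVL4 were also lower at E16 vs. E11 (log2 -5.69, -3.19, -1.36 and -1.16), while myelin genes such as MBP were higher (7.25), and the part of nerve cells was not tested. Of 5 members of the clock and of metabolism, 1 (FBXW7) was higher at E16 (20%, beside 12.5%) and none passed 2-fold at D1 vs. E16. FBXL21, which acts on cryptochromes in mice, had 11.6, 16.1 and 9.58 FPKM.

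Enzymes around these ligases were described by lists of genes that are no members. Of 27 ubiquitin-activating and conjugating enzymes, 4 were higher (14.8%, beside 12.5% of all genes) and none lower at E16 vs. E11, and 2 were higher (7.41%, beside 10.3%) and 2 lower (7.41%, beside 8.71%) at D1 vs. E16, near the shares of all genes apart from the lower genes at E16. UBE2B, a conjugating enzyme of protein breakdown in rat muscle, had an FPKM of 17.1 at E11, 36.7 at E16 and 122 at D1, and UBE2D1 33.3, 68.3 and 161. UBE2C, which serves the anaphase-promoting complex, had 74.2, 43.3 and 7.15. Of 30 other ligases, 3 were higher (beside 12.5%) and none lower (beside 10.4%) at E16 vs. E11. At D1 vs. E16, 2 were higher (6.67%, beside 10.3%) and none lower (beside 8.71%). At D1 vs. E11, 7 were higher (23.3%, beside 20.5%) and 1, MIB1, was lower (3.33%, beside 18.1%). Among them WWP1, a HECT-type ligase, had 23.6, 50.9 and 115 FPKM.

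Of 24 substrates, partners and regulators known in mammals, 8 were higher (33.3%, beside 12.5% of all genes) and none lower (beside 10.4%) at E16 vs. E11. These 8 were DES, LMOD3, MYOM2, MYBPC1, MYL1, CAV3, BCL6 and KLF15. MYL1 is also among the muscle fiber markers above, and the part of muscle fibers in this share was not tested. At D1 vs. E16, 4 were higher (16.7%, beside 10.3%) and 2 lower (8.33%, beside 8.71%). KLF15, a transcription factor that activates FBXO32 and TRIM63 in rodents, had 11.3, 32.5 and 120 FPKM at E11, E16 and D1, and FOXO3, which activates FBXO32 in mice, 35.7, 54.2 and 108. The glucocorticoid receptor NR3C1 was level at 29.5, 35.0 and 29.6. MYOD1, a myogenic factor and a substrate of atrogin-1 in mice, had 54.2, 81.5 and 139, and IRS1, the substrate of FBXO40, 9.47, 6.99 and 12.5. Beta-catenin (CTNNB1), the substrate of FBXW11, had 249, 134 and 81.4.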

How the data were processed

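RNA-seq of 6 leg muscle libraries (2 each at E11, E16 and D1) was used as 3 tables, 1 per pair of stages. FPKM values were made by the authors with Cufflinks tools, 1 per transcript and stage over both libraries and scaled within each table. The submitters' processing notes name Trim Galore, Bowtie, TopHat, Cufflinks and the build galGal4, without versions. The tables' fold change, test statistic, p, q and significance columns hold the authors' own comparison and were not used. No read counts are given, so the depth behind a value is unknown.

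Groups came from the sample titles. Per gene the transcript entry with the highest mean FPKM was kept, log2 ratios were taken with a pseudocount of 0.1, and genes with a mean FPKM under 1 over both stages were left out of counts, as were entries marked as holding too many fragments. A 2-fold difference was counted. Scripts were tested on simulated data. Members and lists were chosen with earlier results of these data known. Named are the 10 highest and 10 lowest ratios past 2-fold per comparison, the 2 most abundant genes per family, muscle-listed genes and cullins. Others (such as FBXO30, KLHL21 and TRIM2) were named after their values were seen. Positions are loci on galGal4 with the first base counted as 1. Alternatives were pseudocounts of 1 and 0.01, no filter, a mean FPKM of at least 5, summed entries, centring and a 3-fold limit. Leaving out marked entries changed no member count, since no member that passed the filter was marked. Python 3.11.15 with pandas 2.3.3, numpy 2.4.6 and matplotlib 3.10.9 was used.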

Additional observations from a re-analysis of the deposited data

How the results depend on the processing

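Counts of members lower at the later stage were small and depended on the settings. With a mean FPKM of at least 5, lower members numbered 1 at E16 vs. E11, 2 at D1 vs. E16 and 3 at D1 vs. E11, in place of 7, 6 and 11. Fewer members passed that filter, 82, 74 and 85 in place of 117, 117 and 120. With a 3-fold limit lower members numbered 4, 3 and 5, and higher members at D1 vs. E16 numbered 10 in place of 25. Shares over all genes were not computed for either setting, so these counts have none beside them. With the filter of both steps, chosen after seeing the data, members lower at E16 and then level numbered 2 in place of 7. The median log2 ratio at D1 vs. E11, 0.39, was 0.24 with no filter and 0.63 with a mean FPKM of at least 5. Counts of higher members and medians otherwise stayed within 1.5 times or 0.1 of the values given. No named member past 2-fold changed direction with a pseudocount of 1, summed entries, centring or the ratio through the other tables. The ratio through the other tables moved 25 of 159 ratios by more than 0.1, and a pseudocount of 1 moved 83 of 159. At E16 vs. E11 a pseudocount of 1 gave a log2 ratio of 3.27 for ASB18 in place of 5.31, and 2.36 for ASB15 in place of 4.37. The size of large ratios from low values thus depended on the pseudocount. With a pseudocount of 1, ASB4, FBXL7, FBXO2 and KLHL25 no longer passed 2-fold at E16 vs. E11, ASB10, KBTBD13 and TRIM62 at D1 vs. E16, and ASB18, KLHL4 and TRIM62 at D1 vs. E11. Centring took KLHL40 below 2-fold at D1 vs. E16. Lower members in that comparison numbered 8 in place of 6 with centring, as TRIM55 and ASB5 (log2 -0.99 and -0.97 uncentred) then passed 2-fold. No paired analysis was possible because the tables hold 1 value per stage over both libraries, and for the same reason no library could be left out.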
